A study of Mus musculus with 5 samples.

Results

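The genes described here are 9 that cells use when oxygen is short or when sugar is burned by glycolysis: Slc2a1, Ldha, Pgk1, Pfkfb3, Vegfa, Adm, Ndrg1, Bnip3 and Egln3. They were named out of 22146 genes by a rule that uses no measured value, though with earlier results of these data known, and all 9 had UMIs (unique molecular identifiers, 1 per captured transcript) in each of the 5 libraries. Cells were captured by inDrop, a droplet method for single-cell RNA sequencing, from the colon of mice of WT genotype, C57BL/6J or a C57BL/6J;129 mix, aged 6 to 12 weeks when the work on them began. All 4 tumor libraries came from AOM/DSS tumors, which form after the carcinogen azoxymethane and the colitis-inducing salt dextran sodium sulfate, and all were treated with 5FU+Irinotecan. Early treatment was day 1 (replicates 1 and 2), and late treatment was 1 library at day 3 and 1 at day 6. Per the paper, 3 cycles of irinotecan followed by 5FU were given, and tissue was taken after the last cycle. Early treatment therefore does not mean a first exposure to the drugs. The paper words the days both as length of treatment and as time after treatment. The dose from which they count was not given in the sources used here. The single untreated library was labelled WT fibroblast and made by a fibroblast dissociation of normal colon, in which epithelial crypts were first released and discarded. Tumor, treatment and dissociation therefore differed together between the tumor libraries and the normal one, and their parts cannot be told apart. The day 1 libraries, and those of days 3 and 6 together, are described as biological replicates. How many mice stood behind each library was not given in the sources used here. Untreated tumors were not analysed here.

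When oxygen falls, the oxygen-dependent prolyl hydroxylases stop marking the alpha subunits of HIF (hypoxia-inducible factor) for destruction. HIF then binds short DNA elements containing ACGTG or GCGTG near its target genes and raises glucose uptake, glycolysis, vessel-forming signals and the removal of mitochondria. Many of these genes also answer to growth, inflammation and differentiation, so a level of one of them is not a measure of oxygen. The colon has low oxygen at its luminal surface, and tumors contain regions far from vessels.

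The promoters of 8 of the 9 genes were found in the RefSeq table (GRCm38.p6, 250 bases before to 50 bases after the start), which held 11 promoters for these 8 genes. Ndrg1 had no entry. Of the 11 promoters, 10 held ACGTG or GCGTG on either strand (read as CACGT or CACGC on the other strand, overlapping matches counted), against 43.8% of all 32851 promoters in the table. The promoters of Slc2a1, Ldha and Egln3 are printed, because the levels of these 3 genes followed each other most closely over cell types. Capitals mark the matches, and a match is a description of the letters, not evidence that a factor bound there.
Slc2a1 promoter, chr4:119108495-119108794, plus strand: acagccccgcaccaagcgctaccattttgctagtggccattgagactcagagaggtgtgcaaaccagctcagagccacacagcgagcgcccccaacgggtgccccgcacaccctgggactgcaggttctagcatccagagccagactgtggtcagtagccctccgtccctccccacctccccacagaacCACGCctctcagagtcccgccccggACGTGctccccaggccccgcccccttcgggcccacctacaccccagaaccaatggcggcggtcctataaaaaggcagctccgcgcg
Ldha promoter (first start site), chr7:46845554-46845853, plus strand: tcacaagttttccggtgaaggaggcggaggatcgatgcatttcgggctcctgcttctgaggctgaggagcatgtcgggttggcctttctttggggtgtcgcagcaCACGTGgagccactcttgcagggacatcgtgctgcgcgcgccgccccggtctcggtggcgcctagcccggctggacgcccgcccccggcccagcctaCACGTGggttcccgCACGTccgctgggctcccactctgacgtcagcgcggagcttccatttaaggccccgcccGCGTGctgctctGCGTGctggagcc
Egln3 promoter, chr12:54203825-54204124, minus strand: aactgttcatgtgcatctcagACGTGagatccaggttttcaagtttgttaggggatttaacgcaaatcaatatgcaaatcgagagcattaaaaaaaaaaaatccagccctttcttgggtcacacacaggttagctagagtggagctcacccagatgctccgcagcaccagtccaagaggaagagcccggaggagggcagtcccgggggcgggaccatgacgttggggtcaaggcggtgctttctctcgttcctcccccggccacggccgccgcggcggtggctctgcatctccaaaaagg
The Ldha window held 7 matches, among them 2 stretches of CACGTG, each of which matches on both strands. The Slc2a1 window held 2 and the Egln3 window 1.

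In all, 8491 cells with at least 500 genes and at most 15% mitochondrial UMIs were kept, between 748 and 2826 per library, with medians of 2903 to 3601 UMIs. Between 34 and 107 cell barcodes per library also occurred in another library. Cells were clustered without the 9 genes and the related gene lists, and clusters were named from marker genes. The classes columnar-like, squamous-like, neutrophil-like, macrophage-like and stromal-like are written below without the suffix. Stromal cells were fibroblasts in the tumor libraries (14 to 56 cells) and fibroblasts, telocytes and myofibroblasts in normal colon (263, 103 and 72 cells). Columnar cells numbered 249, 939, 950, 1368 and 328 in day 1 replicate 1, day 1 replicate 2, day 3, day 6 and normal colon, the order of libraries used for all values below. The tumor libraries also held 48, 182, 260 and 735 squamous cells, the stratified type that is not part of normal colon lining, and 67, 389, 27 and 23 neutrophils. Macrophages numbered 47, 133, 113 and 70 in day 1 replicates 1 and 2, day 6 and normal colon, and the 5 macrophages of day 3 were too few to sum. Columnar clusters were mostly of single libraries, so that a difference between libraries and a difference between clusters cannot be told apart. Of the columnar clusters, 3 had more markers of another class than of their own among their 10 leading genes: cluster 0 (639 cells, all of day 6, with the goblet genes Clca1 and Zg16), cluster 4 (408 cells, mostly of day 1, with Prox1) and cluster 9 (338 cells, 336 of day 1 replicate 2, with F3). Below they are called clusters led by markers of other classes, a label that rests on the few genes just named. Against non-epithelial cells, the columnar markers of clusters 0, 4 and 9 averaged 1.35, 0.125 and 1.58 log2 higher. Of these markers, 6, 3 and 8 passed the naming rule. Without these clusters 103, 374, 932, 712 and 328 columnar cells remained. The differences between classes of the tumor libraries that passed the test all passed without these 3 clusters too, and values without them are given beside the results below.

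Levels are CPM, the gene's UMIs per 1000000 UMIs summed over the cells of a class in a library. Day 1 replicate 1 and day 3 had the single index library structure, and the other 3 libraries the dual index structure, sequenced on another instrument. Pgk1 was higher in both dual index than in both single index tumor libraries in 4 of 5 classes and higher than the lone single index sum in macrophages, and so was Gapdh, another glycolytic gene (461 to 482 CPM against 1850 to 3251 CPM in columnar cells). For the other 8 genes this held in at most 2 classes. RNA of columnar cells was found in the other classes: the median level of 8 columnar markers reached 46.0% to 80.5% of its columnar level in neutrophils, 19.0% to 59.9% in squamous cells, 21.4% to 50.8% in tumor macrophages and 24.7% to 62.0% in tumor stromal cells, but 4.39% and 4.42% in macrophages and stromal cells of normal colon. Free RNA, droplets holding a pair of cells and the cells' own expression cannot be told apart in these shares. For each gene, the share of columnar markers times the columnar level is called the carry-over level below.

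**Figure D1:**
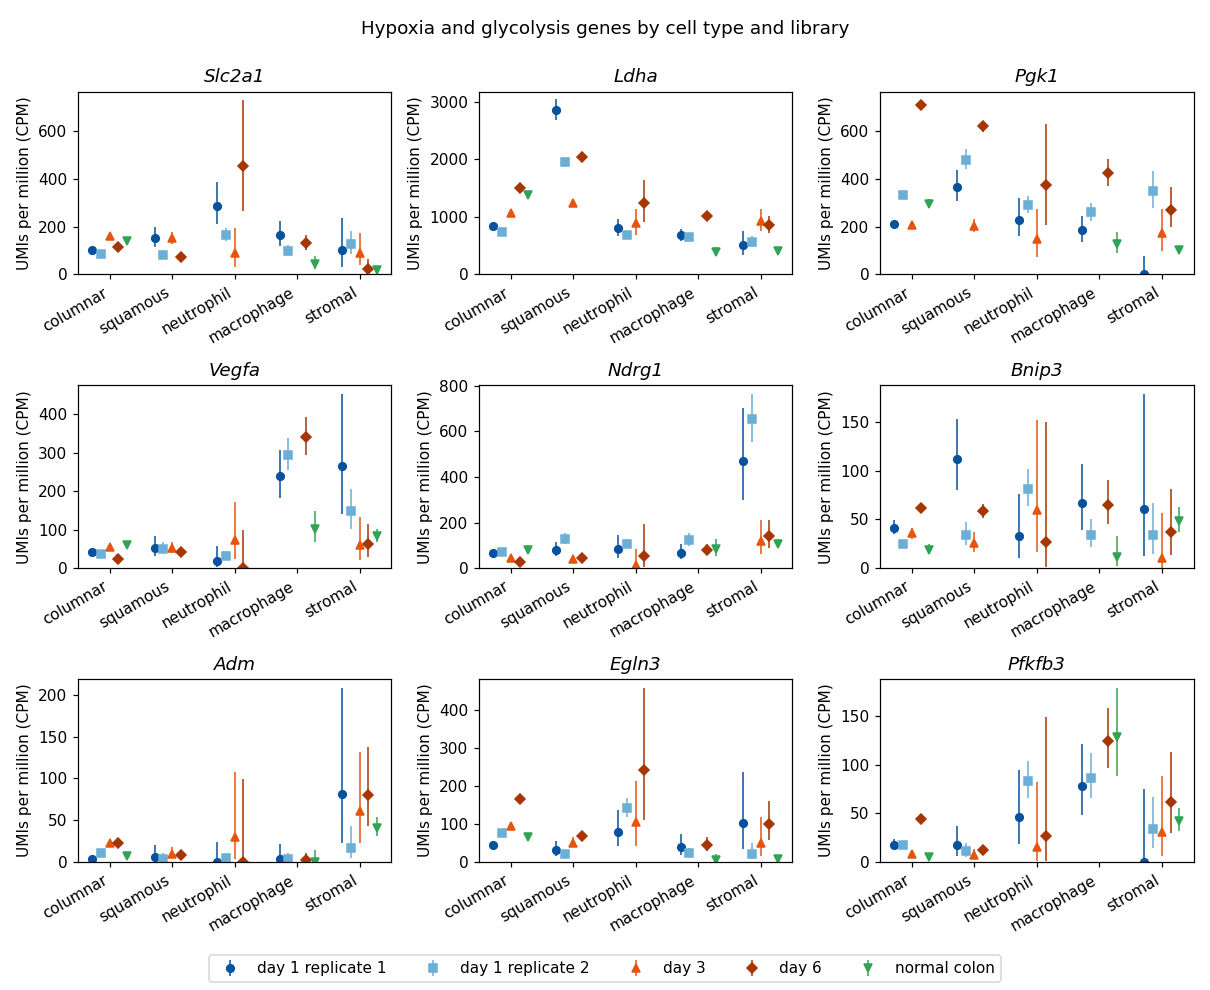
Level of each of the 9 genes (CPM, linear axis, a scale of its own in each panel) in columnar, squamous, neutrophil, macrophage and stromal cells, with 1 symbol per library and bars for the 95% Poisson interval, which covers counting error only. Vegfa stands above the columnar cells in tumor macrophages (239 to 340.4 CPM), Ndrg1 in stromal cells of day 1 (468 and 652 CPM) and Ldha in squamous cells of each library (1248 to 2859.7 CPM).

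The genes of glucose uptake and glycolysis were detected in every class. Among them Ldha was higher in squamous cells, and Pfkfb3 in macrophages and neutrophils, than in columnar cells. Neutrophil levels were 1.04 to 1.78 times the carry-over level for Ldha and 0.895 to 1.43 times for Pgk1. They were 0.679 to 8.65 times for Slc2a1 and 1.34 to 7.86 times for Pfkfb3. Ldha encodes the lactate dehydrogenase subunit that turns pyruvate into lactate. Its level was 2859.7, 1948, 1248 and 2044 CPM in squamous cells and 844, 745, 1067 and 1510.1 CPM in columnar cells of the same tumor libraries. Squamous cells were higher in each of the 4 libraries, by the least at day 3. In the edgeR quasi-likelihood test with library as a block, Ldha rose by 1.06 ± 0.27 log2 (SE, 4 libraries, adjusted p = 0.00562), with 18.1% of all genes tested called in this comparison. It was 1.07 (adjusted p = 0.0172) without the 3 columnar clusters, 0.77 (adjusted p = 0.0969) without day 1 replicate 1, 0.87 (adjusted p = 0.0794) without day 1 replicate 2 and 1.01 (adjusted p = 0.066) in a fit of these classes alone. The squamous level was 1.95 to 12.8 times the carry-over level. When every cell was thinned to 1000 UMIs, leaving out 27 squamous and 128 columnar cells of day 6 that were shallower, 95.8%, 80.2%, 63.8% and 77.8% of squamous cells still held an Ldha UMI against 52.2%, 42.8%, 62.3% and 78.5% of columnar cells. At this depth the shares were apart at day 1 and within 2 percentage points at days 3 and 6. At 500 UMIs, where no cell was left out, day 6 was at 59.6% of squamous and 51.8% of columnar cells. Before thinning all shares were between 88.1% and 100%. In the other classes Ldha passed no test, with -0.20 ± 0.27 log2 in neutrophils (683 to 1235 CPM, adjusted p = 0.65), -0.29 ± 0.29 in macrophages (654 to 1008 CPM, adjusted p = 0.535) and -0.65 ± 0.27 in stromal cells (509 to 928 CPM, adjusted p = 0.097). The stromal difference passed without the low-count filter (-0.76, adjusted p = 0.0149) and with the weak columnar clusters 4 and 6 left out (-0.78, adjusted p = 0.0136).

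Pfkfb3, which makes the sugar phosphate that switches phosphofructokinase on, was higher in both myeloid classes than in columnar cells. It stood at 78.4, 86.6 and 125 CPM in tumor macrophages and at 17.5, 17.4, 7.98 and 43.7 CPM in columnar cells. The macrophage values lay above every columnar value. The difference was 2.13 ± 0.37 log2 (edgeR, adjusted p = 9.29e-05), was called under 14 of 14 alternatives (2.00 to 2.58, with 2.26, adjusted p = 0.000318, without the 3 columnar clusters) and was 8.81 to 14.9 times the carry-over level. The percentage of all genes called between macrophages and columnar cells was 26.2%. In neutrophils Pfkfb3 was at 45.9, 83.4, 14.8 and 26.9 CPM, from 7, 77, 1 and 1 UMIs, so that the level rested on day 1 replicate 2. The neutrophil difference was 1.72 ± 0.42 log2 (edgeR, adjusted p = 0.00495), where 16.6% of all genes were called, 0.79 (adjusted p = 0.515) without day 1 replicate 2 and 1.77 (adjusted p = 0.0118) without the 3 columnar clusters. Squamous cells (6.55 to 16.8 CPM, -0.93 ± 0.40 log2, adjusted p = 0.124) and stromal cells (0 to 61.8 CPM, 0.65 ± 0.50 log2, adjusted p = 0.397) did not pass. Among normal cells Pfkfb3 was at 128 CPM in macrophages, 151 CPM in endothelial cells and 4.52 CPM in columnar cells.

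Slc2a1, the glucose transporter GLUT1, did not pass the main test between classes. It was at 288, 166, 88.9 and 456 CPM in neutrophils and 102, 87.2, 163 and 115 CPM in columnar cells. Neutrophils were higher in 3 of 4 libraries and lower at day 3, where neutrophil markers summed to 7338 CPM against 19809 to 32652 CPM in the other libraries. The edgeR difference was 1.04 ± 0.38 log2 (adjusted p = 0.0629). It passed under 6 alternatives: 1.24 with DESeq2 (adjusted p = 0.042), 1.19 with RLE scaling (adjusted p = 0.0345), 0.90 without the low-count filter (adjusted p = 0.0306), 1.12 with high Scrublet scores removed (adjusted p = 0.0313), 1.08 in a fit of these classes alone (adjusted p = 0.00724) and 1.46 without day 3 (adjusted p = 0.00858). Without the 3 columnar clusters it was 0.88 (adjusted p = 0.142). In macrophages Slc2a1 was at 165, 98.3 and 132 CPM, and in tumor stromal cells at 102, 126, 90.8 and 24.7 CPM. Both ranges overlapped the columnar range, as did squamous cells at 71.9 to 152 CPM, with edgeR differences of 0.36 ± 0.39, -0.50 ± 0.43 and -0.02 ± 0.34 log2 (adjusted p = 0.568, 0.451 and 0.989).

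Pgk1, a phosphoglycerate kinase and one of the steps of glycolysis that makes ATP, followed the library more than the class. In columnar cells it was at 212, 334, 206 and 711 CPM, and in squamous cells at 368, 481, 205 and 621 CPM. Day 3 squamous cells were level with day 3 columnar cells. The 14 stromal cells of day 1 replicate 1 held no Pgk1 UMI, which allows a level of up to 61.1 CPM, and the other tumor stromal sums were at 349, 172 and 272 CPM. No class passed the edgeR test against columnar cells, with adjusted p between 0.116 in stromal cells (-0.84 ± 0.37 log2) and 0.632 in squamous cells (0.32 ± 0.33 log2), and values of -0.32 ± 0.36 in neutrophils and -0.35 ± 0.37 in macrophages. Pgk1 in stroma passed without the low-count filter (-0.95, adjusted p = 0.0124) and without the weak columnar clusters (-1.03, adjusted p = 0.0213).

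**Figure D2:**
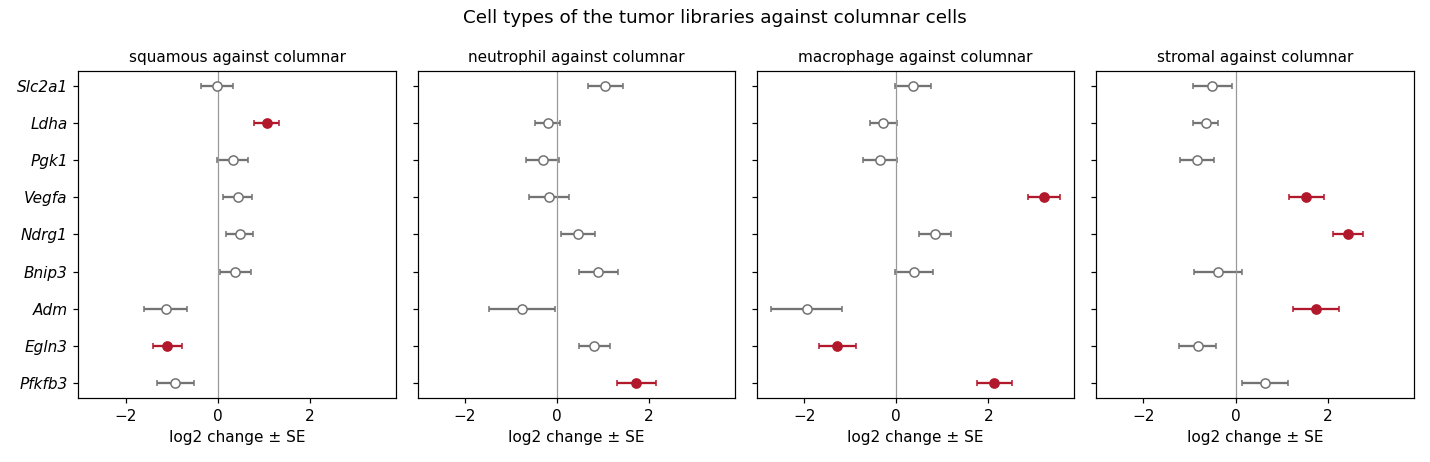
Difference of each class from columnar cells within the 4 tumor libraries (log2 change with its standard error, edgeR fit with library as a block), 1 panel per class. Filled points passed an adjusted p of 0.05: Ldha and Egln3 in squamous cells, Pfkfb3 in neutrophils, Vegfa, Egln3 and Pfkfb3 in macrophages, and Vegfa, Ndrg1 and Adm in stromal cells.

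Of the secreted signals, Vegfa was higher in macrophages and stroma and Adm in stroma than in columnar cells. Vegfa, the growth factor that draws in new vessels, was in macrophages at 239, 293 and 340.4 CPM, in the tumor libraries with enough of these cells, against 41.8, 35.8, 55.7 and 24.6 CPM in columnar cells. The macrophage and columnar values did not overlap. The difference of 3.20 ± 0.35 log2 (edgeR, adjusted p = 7.01e-08) was called under 14 of 14 alternatives, between 2.85 and 3.49, and was 3.25 (adjusted p = 1.38e-07) without the 3 columnar clusters. The macrophage level was 11.3 to 64.5 times the carry-over level. With cells thinned to 1000 UMIs, 12.8%, 21.1% and 18.6% of tumor macrophages held a Vegfa UMI against 2.42% to 5.89% of tumor columnar cells. Before thinning the macrophage shares were 27.7%, 39.8% and 44.2%.

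In tumor stromal cells Vegfa was at 265, 147, 60.5 and 61.8 CPM, higher than in the columnar cells of each library, with day 1 above days 3 and 6, and 1.75 to 16.1 times the carry-over level. The stromal difference was 1.54 ± 0.37 log2 (edgeR, adjusted p = 0.00344), where 20.7% of all genes were called, 1.32 (adjusted p = 0.0902) without day 1 replicate 2 and 1.68 (adjusted p = 0.00253) without the 3 columnar clusters. In day 1 replicate 1 the stromal level was above that of macrophages (239 CPM). It came from 14 cells with 49134 UMIs in all, so that the classes cannot be ranked there. Squamous cells were at 41.1 to 53.3 CPM (0.43 ± 0.31 log2, adjusted p = 0.429). Neutrophils were at 19.7, 30.3, 74.1 and 0 CPM and did not pass the test (-0.18 ± 0.44 log2, adjusted p = 0.83).

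Adm encodes adrenomedullin, a peptide that widens vessels and tightens their walls. It was higher in stroma than in columnar cells, at 81.4, 16.8, 60.5 and 80.3 CPM in tumor stromal cells and 3.71, 10.5, 22.0 and 22.1 CPM in columnar cells, but from only 4, 4, 6 and 13 stromal UMIs. The stromal sum was higher in each of the 4 libraries. Lymphatic endothelial cells were at 37.3 to 58.8 CPM in the 3 tumor libraries that had them, within the stromal range and above the stroma of day 1 replicate 2. The difference was 1.75 ± 0.49 log2 (edgeR, adjusted p = 0.012). It was 1.30 (adjusted p = 0.0614) without day 1 replicate 1, 1.70 (adjusted p = 0.0717) without day 6 and 2.05 (adjusted p = 0.00751) without the 3 columnar clusters. In squamous cells Adm was at 3.91 to 9.35 CPM, and in macrophages at 1.86 to 3.92 CPM, and neither difference passed the test (-1.13 ± 0.46 log2, adjusted p = 0.1, and -1.95 ± 0.76 log2, adjusted p = 0.0621). Without day 1 replicate 1 both passed, at -1.36 (adjusted p = 0.0414) and -2.35 (adjusted p = 0.0333), and so they did without the weak columnar clusters (-1.40, adjusted p = 0.0196, and -2.32, adjusted p = 0.017). In macrophages Adm also passed without the low-count filter (-2.08, adjusted p = 0.0249), on library sizes (-2.08, adjusted p = 0.0422) and at the finer clustering (-2.19, adjusted p = 0.0338). Neutrophils (0 to 29.6 CPM) were at -0.76 ± 0.71 log2 (adjusted p = 0.502). The stromal level was 4.45 to 36.6 times the carry-over level.

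Ndrg1, a stress- and differentiation-linked gene that is widely used as a readout of hypoxia, was the gene most clearly higher in stroma. It was at 468, 652, 121 and 142 CPM in tumor stromal cells and 66.8, 69.1, 44.8 and 25.1 CPM in columnar cells. Stroma was higher in each library, and day 1 stood above days 3 and 6. The difference was 2.45 ± 0.32 log2 (edgeR, adjusted p = 2.4e-06), called under 14 of 14 alternatives between 2.13 and 2.90 (2.74, adjusted p = 9.99e-07, without the 3 columnar clusters), and the stromal level was 4.36 to 37.0 times the carry-over level. Squamous cells (38.3 to 128 CPM), neutrophils (14.8 to 106 CPM) and macrophages (66.7 to 123 CPM) overlapped the columnar range. The squamous and neutrophil differences were 0.48 ± 0.29 and 0.46 ± 0.37 log2 (edgeR, adjusted p = 0.327 and 0.424). The macrophage difference was 0.83 ± 0.34 log2 (adjusted p = 0.0763). It passed under 5 alternatives: 1.06 without the 3 columnar clusters (adjusted p = 0.0408), 1.18 without the weak ones (adjusted p = 0.00929), 1.02 with high Scrublet scores removed (adjusted p = 0.0164), 1.01 in a fit of these classes alone (adjusted p = 0.027) and 1.03 without day 3 (adjusted p = 0.0138), whose macrophages were too few to sum.

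Egln3 encodes PHD3, an oxygen-dependent prolyl hydroxylase that HIF itself induces. It was lower in squamous cells (30.9, 19.6, 50.5 and 69.1 CPM) and in macrophages (39.2, 22.0 and 44.6 CPM) than in columnar cells (45.6, 76.9, 94.0 and 164 CPM). Each squamous and macrophage sum lay below the columnar sum of its own library. The squamous difference was -1.10 ± 0.32 log2 (edgeR, adjusted p = 0.0149), -1.39 (adjusted p = 0.00206) without the 3 columnar clusters, -0.93 (adjusted p = 0.0758) without day 1 replicate 2 and -0.98 (adjusted p = 0.0671) without day 6. The macrophage difference was -1.28 ± 0.40 log2 (edgeR, adjusted p = 0.0177), -1.70 (adjusted p = 0.00146) without the 3 clusters, -1.16 (adjusted p = 0.0839) without day 1 replicate 2 and -0.95 (adjusted p = 0.187) without day 6. Set against the carry-over level, at 0.858 to 1.70 times, the macrophage values lay on either side of it. Neutrophils were at 78.6, 141, 104 and 242 CPM, and their difference did not pass the test (0.81 ± 0.34 log2, adjusted p = 0.103) unless day 6 was left out (1.05, adjusted p = 0.0417). Stromal cells were at 102, 21.0, 50.4 and 98.8 CPM (-0.82 ± 0.40 log2, adjusted p = 0.161), and passed only without day 1 replicate 1 (-1.21, adjusted p = 0.0497) or without columnar clusters (-1.10, adjusted p = 0.0445, without the 3 named above, and -1.08, adjusted p = 0.022, without the weak ones).

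Bnip3, a mitochondrial outer membrane protein that marks mitochondria for autophagy, passed the test in no comparison between classes. It ranged from 24.2 to 61.7 CPM in tumor columnar cells, 25.2 to 112 CPM in squamous cells, 26.9 to 81.2 CPM in neutrophils, 33.7 to 66.7 CPM in macrophages and 10.1 to 61.1 CPM in stromal cells. All these ranges overlapped. The differences from columnar cells were 0.38 ± 0.34 log2 in squamous cells, 0.90 ± 0.43 in neutrophils, 0.38 ± 0.41 in macrophages and -0.39 ± 0.52 in stromal cells (edgeR, adjusted p = 0.559, 0.154, 0.564 and 0.658). In neutrophils it passed only without day 6 (1.32 log2, edgeR, adjusted p = 0.0346).

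**Figure D3:**
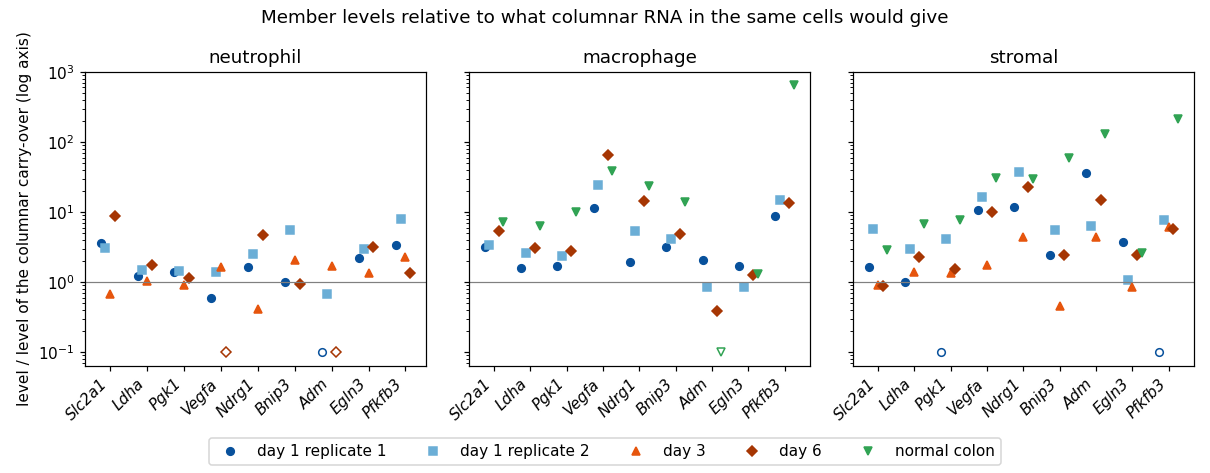
Level of each gene divided by its carry-over level (log axis), for neutrophils, macrophages and stromal cells, 1 symbol per library, normal colon included, where 1 is the level that columnar RNA alone would give. Open symbols at the lower edge are levels of 0. Vegfa and Pfkfb3 in tumor macrophages (11.3 to 64.5 and 8.81 to 14.9) and Ndrg1 in stroma (4.36 to 37.0) lie above 1, and Egln3 in macrophages (0.858 to 1.70) lies around it.

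The tumor libraries were set against normal colon in the 3 classes that both had. No gene of the 9 passed the edgeR test in any of them: 0 of 9 tested in columnar cells, 0 of 8 in macrophages and 0 of 7 in stromal cells, where 0.905%, 3.44% and 1.98% of all genes tested were called. The spread in these fits is that of the tumor libraries, and the lone normal library is assumed to vary like them. The normal library carried a strong dissociation signature: 12 immediate-early and heat-shock genes summed to 14313, 20999 and 26429.8 CPM in its columnar cells, macrophages and stromal cells, against 1164 to 1575, 2446 to 4537 and 1742 to 4620 CPM in the tumor libraries. The part of this difference in the levels of the 9 genes was not tested.

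In macrophages, 6 of the 9 genes were higher in all 3 tumor libraries than in normal colon, beside 39.0% of all genes tested, a share that also counts genes with no UMI in the normal library. Vegfa was at 239, 293 and 340.4 CPM in tumor macrophages and 102 CPM in normal ones (1.39 ± 0.55 log2, edgeR, adjusted p = 0.23). Egln3 was at 39.2, 22.0 and 44.6 CPM against 3.78 CPM (2.99 ± 1.15 log2, adjusted p = 0.21), and Bnip3 at 66.7, 33.7 and 65.1 CPM against 11.3 CPM (2.11 ± 0.84 log2, adjusted p = 0.228). Slc2a1 was at 165, 98.3 and 132 CPM against 45.3 CPM (1.39 ± 0.59 log2, adjusted p = 0.263). Ldha (654 to 1008 CPM against 389 CPM, 0.89 ± 0.57 log2, adjusted p = 0.469) and Pgk1 (184 to 424 CPM against 128 CPM, 1.07 ± 0.62 log2, adjusted p = 0.425) completed the 6. Adm, at 1.86 to 3.92 CPM from 1 or 2 UMIs in the tumor libraries, had no UMI in normal macrophages, which allows up to 11.3 CPM, so that it could not be ranked. Few UMIs also stood behind the normal values of Egln3 and Bnip3, neither of which was above this limit of 11.3 CPM. Tumor macrophage Egln3 was 0.858 to 1.70 times the carry-over level. The part of columnar RNA in its difference from normal macrophages was not tested. Pfkfb3 was below the normal level of 128 CPM in all 3 (-0.52 ± 0.50 log2, adjusted p = 0.65), and Ndrg1 lay on either side of the normal 83.1 CPM (-0.01 ± 0.53 log2, adjusted p = 0.996). The share of all genes lower in each tumor library than in normal macrophages was not counted. Columnar markers were also higher in tumor than in normal macrophages, at 21.4% to 50.8% against 4.39% of their columnar level. The 9 genes had a median of 1.23 log2 over the 8 tested, against 0.11 over all genes tested.

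In stromal cells, 4 of the 9 genes were higher in all 4 tumor libraries than in normal colon, beside 25.9% of all genes tested. The mix of cells differed too: tumor stromal cells were fibroblasts only, while the normal ones were 263 fibroblasts, 103 telocytes and 72 myofibroblasts. Egln3 was at 102, 21.0, 50.4 and 98.8 CPM against 7.36 CPM (2.84 ± 1.15 log2, edgeR, adjusted p = 0.275). Slc2a1 was at 102, 126, 90.8 and 24.7 CPM against 18.0 CPM (1.97 ± 0.91 log2, adjusted p = 0.371), with day 6 close to the normal value. Ndrg1 (121 to 652 CPM against 105 CPM, 1.45 ± 0.97 log2, adjusted p = 0.632) and Ldha (509 to 928 CPM against 413 CPM, 0.57 ± 0.81 log2, adjusted p = 0.881) were the others. Pgk1 (0.83 ± 1.07 log2, adjusted p = 0.868), Vegfa (0.34 ± 0.82 log2, adjusted p = 0.933) and Adm (0.22 ± 0.89 log2, adjusted p = 0.964) had tumor values on either side of 101, 82.6 and 40.9 CPM in normal stroma, as did Bnip3 and Pfkfb3, which were too low to test, of 48.3 and 42.5 CPM. Columnar markers stood at 24.7% to 62.0% of their columnar level in tumor stroma and 4.42% in normal stroma, and the tumor stromal levels of Egln3 and Slc2a1 were 0.865 to 3.73 and 0.870 to 5.68 times the carry-over level. Tumor stromal sums came from 14 to 56 cells and 49134 to 237667 UMIs, so that these Egln3 and Slc2a1 levels rest on small counts.

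In columnar cells, Bnip3 and Pfkfb3 were 2 of 9 genes higher in all 4 tumor libraries, beside 29.7% of all genes tested. Bnip3 was at 41.5, 24.2, 35.5 and 61.7 CPM against 18.7 CPM (1.04 ± 0.75 log2, edgeR, adjusted p = 0.574), and Pfkfb3 at 17.5, 17.4, 7.98 and 43.7 CPM against 4.52 CPM (2.19 ± 1.13 log2, adjusted p = 0.438). Without the 3 clusters led by markers of other classes, Bnip3 in day 1 replicate 2 was 9.88 CPM, below the normal value. The share of all genes lower in each tumor library than in normal colon, as the next 2 were, was not counted. Vegfa (60.7 CPM) and Ndrg1 (79.2 CPM) were higher in normal columnar cells than in each tumor library (-0.76 ± 0.54 and -0.83 ± 0.50 log2, adjusted p = 0.564 and 0.498). Slc2a1 at 142 CPM, Ldha at 1387 CPM, Pgk1 at 296 CPM, Egln3 at 64.9 CPM and Adm at 7.11 CPM in normal cells lay within the tumor range (adjusted p from 0.718 to 0.925).

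Whether the tumor change differed between classes was tested with an interaction term and library as a block, an analysis added after the data were seen. Columnar markers stood at 21.4% to 50.8% of their columnar level in tumor macrophages and 4.39% in normal ones. Tumor macrophage levels were 1.60 to 3.12 times the carry-over level for Ldha and 3.17 to 5.37 times for Slc2a1. For Pfkfb3 they were 8.81 to 14.9 times and for Vegfa 11.3 to 64.5 times. The part of columnar RNA in the differences below was not tested. The Vegfa change was larger in macrophages than in columnar cells by 2.58 ± 0.54 log2 (edgeR, adjusted p = 0.00928), where 2.73% of all genes were called. This call held under 10 of 10 alternatives, between 2.38 and 2.98, and was 2.71 (adjusted p = 0.0368) without the 3 columnar clusters. Slc2a1 (2.18 ± 0.57, adjusted p = 0.0424), Ldha (1.67 ± 0.45, adjusted p = 0.0447) and Pfkfb3 (-2.67 ± 0.66, adjusted p = 0.0291) also passed, but kept their calls under 4, 3 and 6 of the 10 alternatives. All 3 lost them without the 3 columnar clusters (adjusted p = 0.22, 0.537 and 0.138) and without day 3 (adjusted p = 0.0817, 0.0817 and 0.0671), Slc2a1 and Ldha also without day 1 replicate 2 (adjusted p = 0.114 and 0.414), and Ldha also without day 1 replicate 1 (adjusted p = 0.136). Between stromal and columnar cells none of the 9 genes passed, with 3.66% of all genes called. The largest were Slc2a1 (2.31 ± 0.79 log2, adjusted p = 0.0789) and Ndrg1 (1.99 ± 0.69 log2, adjusted p = 0.0907). Slc2a1 reached 2.81 (adjusted p = 0.00603) without day 6, and Ndrg1 2.06 (adjusted p = 0.0321) without day 6 and 2.37 (adjusted p = 0.0327) without day 3.

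**Figure D4:**
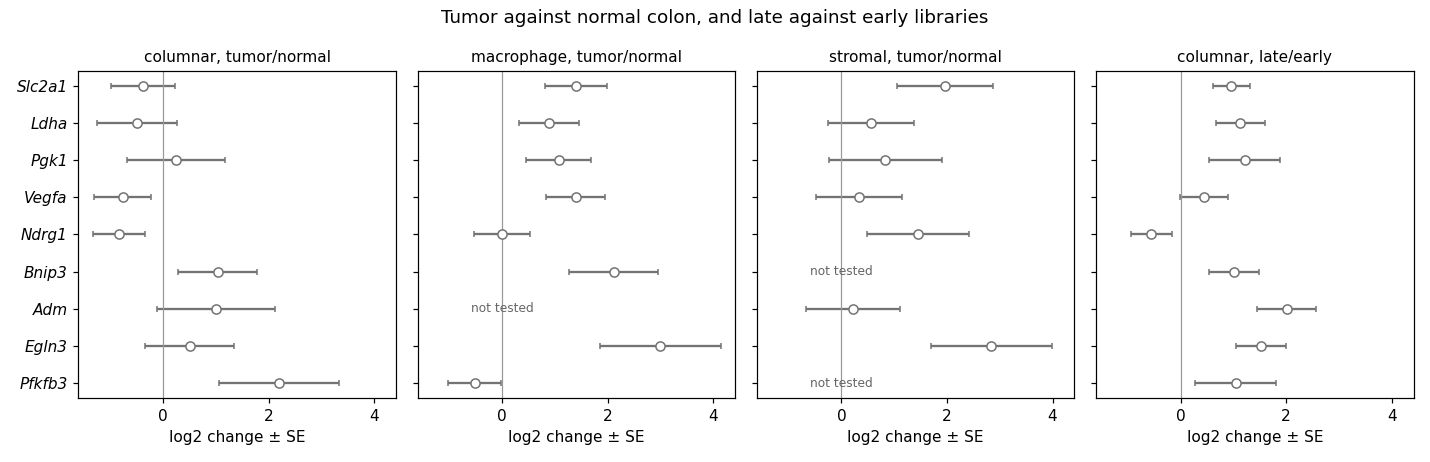
Log2 change of each gene with its standard error (edgeR) between tumor and normal colon in columnar cells, macrophages and stromal cells, and between late and early treatment in columnar cells. No point passed an adjusted p of 0.05, and the longest bars include those of Egln3 in macrophages (2.99 ± 1.15) and stromal cells (2.84 ± 1.15).

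Late was compared with early treatment in the 5 classes, 2 libraries against 2, and for macrophages day 6 alone against day 1. No gene of the 9 passed the test in any class, out of 9 tested in columnar cells, 8 in squamous cells, 4 in neutrophils, 8 in macrophages and 7 in stromal cells. All genes called made up 0% in columnar cells, 0% in squamous cells, 0% in neutrophils, 0.930% in macrophages and 0% in stromal cells. At an unadjusted p under 0.05 edgeR counted 2390, 406, 164 and 266 genes in the 4 classes without a call, and DESeq2 called 708, 23, 6 and 10. Of the 9 genes, 4 were higher in columnar cells of both late than of both early libraries, Slc2a1, Ldha, Adm and Egln3, beside 11.9% of all genes tested. Egln3 went from 45.6 and 76.9 CPM to 94.0 and 164 CPM (1.52 ± 0.47 log2, edgeR, adjusted p = 0.204), and Adm from 3.71 and 10.5 CPM to 22.0 and 22.1 CPM (2.01 ± 0.56 log2, adjusted p = 0.186). Slc2a1 differed by 0.96 ± 0.36 log2 (adjusted p = 0.248) and Ldha by 1.13 ± 0.46 (adjusted p = 0.278). Pgk1 (1.21 ± 0.67, adjusted p = 0.387), Bnip3 (1.01 ± 0.48, adjusted p = 0.331), Pfkfb3 (1.04 ± 0.77, adjusted p = 0.506), Vegfa (0.45 ± 0.45, adjusted p = 0.631) and Ndrg1 (-0.55 ± 0.39, adjusted p = 0.484) did not pass either. Adm passed with DESeq2 (2.06, adjusted p = 0.0351), and Adm (2.01, adjusted p = 0.00687) and Egln3 (1.52, adjusted p = 0.0252) without the low-count filter. With library structure as a block, Adm (2.14, adjusted p = 0.0356) and Egln3 (1.5, adjusted p = 0.0302) passed. Without day 3, Pgk1, Bnip3, Adm, Egln3 and Pfkfb3 differed by 1.88, 1.41, 2.05, 1.92 and 1.82 log2. These values set day 6 alone against day 1. Day 6 was a dual index library, the structure in which Pgk1 was higher.

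The columnar change depended on which clusters were counted. Without the 3 clusters led by markers of other classes, Slc2a1 was at 196, 45.3, 163 and 122 CPM, so that the early libraries lay on either side of the late ones, and Egln3 was at 90.9, 94.2, 95.6 and 178 CPM, so that only day 6 stood apart. Ldha was at 1184, 417, 1073 and 1519 CPM, so that day 1 replicate 1 lay between the late libraries. Adm was at 3.83, 2.33, 22.5 and 23.6 CPM (3.29 log2, edgeR, adjusted p = 0.202), still higher in both late libraries. TMM scaling, which sets the bulk of genes equal, moved all late-against-early values in columnar cells by 0.43 log2 relative to scaling by total UMIs. On total UMIs Egln3 was 1.07, Adm 1.57, Slc2a1 0.55 and Vegfa 0.04.

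In squamous cells Egln3 was at 30.9 and 19.6 CPM early and 50.5 and 69.1 CPM late (1.45 ± 0.51 log2, edgeR, adjusted p = 0.999), and Ndrg1 at 78.6 and 128 CPM early and 38.3 and 43.5 CPM late (-1.22 ± 0.50, adjusted p = 0.999). Both late values of Egln3 and Adm were above the early ones, both of Ndrg1 were below, and 6 of the 9 genes overlapped. The share of all genes so separated was not counted in squamous cells. Ldha in squamous cells did not shift one way, at 2859.7 and 1948 CPM early and 1248 and 2044 CPM late. Slc2a1, Pgk1, Vegfa, Bnip3 and Pfkfb3 in squamous cells were between -0.57 ± 0.63 and 0.12 ± 0.55 log2 (adjusted p = 0.999 in each). The difference of the late change between squamous and columnar cells was negative for all 9 genes in the main fit and passed for none of them, with 0.133% of all genes called. It was largest for Ldha (-1.54 ± 0.33 log2, adjusted p = 0.105) and Bnip3 (-1.53 ± 0.41 log2, adjusted p = 0.197). Ldha passed with DESeq2 (-1.53, adjusted p = 0.0185) and without the low-count filter (-1.52, adjusted p = 0.00315). It was -1.55 without day 3 and -1.52 without day 6, fits that each leave a lone late library. Bnip3 passed without the filter (-1.51, adjusted p = 0.0353). Without day 3, Bnip3, Slc2a1 and Pgk1 were at -1.45, -1.32 and -1.27. Without the 3 columnar clusters Ldha was -1.65 (adjusted p = 0.843). Egln3, at -0.01 ± 0.52 log2, took either sign over the alternatives.

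In the other classes no late change of the 9 genes passed. Stromal Ndrg1 was at 468 and 652 CPM early and 121 and 142 CPM late (-2.01 ± 0.57 log2, edgeR, adjusted p = 0.532), and stromal Vegfa at 265 and 147 CPM early and 60.5 and 61.8 CPM late (-1.58 ± 0.60, adjusted p = 0.588). Ndrg1, Vegfa and Slc2a1 had both late values below both early ones, Ldha had both above, and 5 of the 9 genes overlapped. The share of all genes so separated was not counted in stromal cells. Slc2a1 (-1.05 ± 0.71), Ldha (0.81 ± 0.56), Pgk1 (0.23 ± 1.10), Adm (1.07 ± 0.96) and Egln3 (0.84 ± 0.94) did not pass either (adjusted p from 0.726 to 0.979). In macrophages Pgk1 was at 184 and 259.7 CPM early and 424 CPM at day 6 (1.08 ± 0.49 log2, adjusted p = 0.622), and Slc2a1, Ldha, Vegfa, Ndrg1, Bnip3, Egln3 and Pfkfb3 were between -0.17 ± 0.53 and 0.79 ± 0.61 (adjusted p from 0.85 to 0.979). In neutrophils Slc2a1 (0.26 ± 0.80), Ldha (0.58 ± 0.57), Pgk1 (0.00 ± 0.65) and Egln3 (0.57 ± 0.65) had adjusted p from 0.854 to 0.998.

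Within columnar cells the genes varied between clusters as widely as between libraries. Slc2a1 was at 276 CPM in normal cluster 2 (143 cells led by Aqp8, Car4 and Krt20, genes of mature surface colonocytes), against 96.1 and 53.0 CPM in the other normal columnar clusters. Egln3 showed the same order, at 152 CPM against 34.7 and 10.6 CPM. In the tumor libraries Slc2a1 was at 258 CPM in cluster 10 (led by Gprc5a) and 191 CPM in cluster 1, and at 47.1 and 48.2 CPM in clusters 4 and 6. Cluster 1, of which 433 of 436 cells came from day 6, was led by inflammatory genes that include Ido1, Nos2 and Duoxa2. It also held Egln3 at 241 CPM, Pfkfb3 at 107 CPM, Bnip3 at 102 CPM and Adm at 51.5 CPM. Ldha was at 1568 to 2336 CPM over the squamous clusters and 383 to 1583 CPM over the tumor columnar clusters. These are descriptions of clusters, with no test.

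**Figure D5:**
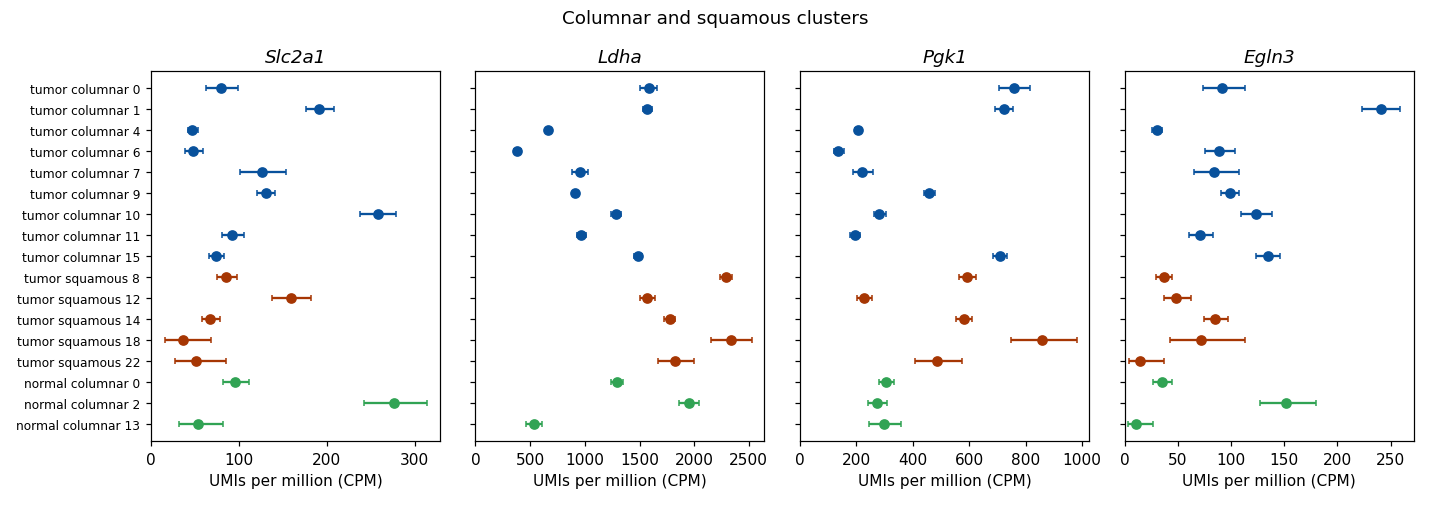
Level of Slc2a1, Ldha, Pgk1 and Egln3 (CPM, linear axis from 0) in each columnar and squamous cluster of the tumor libraries and each columnar cluster of normal colon, with bars for the 95% Poisson interval (counting error only). Slc2a1 and Egln3 are higher in normal cluster 2 (276 and 152 CPM) than in the other normal columnar clusters.

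Related genes were counted in fixed lists by the same tests. Of 18 further glycolysis genes tested, neutrophils had 3 higher and 0 lower than columnar cells, a share near the 16.6% of all genes called. These were Hk3, a hexokinase (7.08 ± 0.65 log2, edgeR, adjusted p = 4.14e-09), Slc2a3, the high-affinity glucose transporter GLUT3 (6.35 ± 0.46, adjusted p = 6.73e-11), and Slc16a3, the lactate exporter MCT4 (4.34 ± 0.35, adjusted p = 3.6e-10). Slc2a3 averaged 272 CPM in neutrophils and 3.74 CPM in columnar cells. The median of these 18 genes was 0.12 log2 in neutrophils against -0.27 over all genes tested. Macrophages had 2 of the 18 higher and 2 lower, squamous cells 1 and 1, and stromal cells 0 and 0, where 26.2%, 18.1% and 20.7% of all genes were called.

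Of 25 other HIF targets tested, 8 were higher and 2 lower in stroma than in columnar cells, where 20.7% of all genes were called. They included Lox, the collagen cross-linking enzyme (7.08 ± 0.72 log2, edgeR, adjusted p = 3.59e-08), Angptl4, an inhibitor of lipoprotein lipase (5.72 ± 0.87, adjusted p = 3.4e-05), and Loxl2, a relative of Lox (3.72 ± 0.31, adjusted p = 9.81e-10). Macrophages had 8 higher and 1 lower beside 26.2% of all genes, among them Hmox1, which degrades heme (4.17 ± 0.45, adjusted p = 6.34e-08), P4ha1, a collagen prolyl hydroxylase (2.74 ± 0.39, adjusted p = 5.57e-06), and Pfkfb4 (2.18 ± 0.41, adjusted p = 0.000245). Neutrophils had 4 higher and 1 lower beside 16.6% of all genes, and Pfkfb4, a relative of Pfkfb3, was among the higher (3.52 ± 0.40, adjusted p = 1.41e-07). Squamous cells had 5 higher and 3 lower beside 18.1% of all genes. Car12, a carbonic anhydrase, was higher (3.40 ± 0.35, adjusted p = 9.69e-08), while Car9, another one (-1.91 ± 0.36, adjusted p = 0.000341), and Nos2, the inducible nitric oxide synthase (-2.57 ± 0.68, adjusted p = 0.00822), were lower. The medians of these 25 genes were -0.35, 0.01, 0.21 and 0.01 log2 in stroma, macrophages, neutrophils and squamous cells, against -0.21, -0.12, -0.27 and -0.05 over all genes tested.

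The lists that follow are to be read beside the same shares of all genes called (20.7% in stroma, 26.2% in macrophages, 16.6% in neutrophils and 18.1% in squamous cells). Receptors for VEGF and adrenomedullin were higher in stroma for 5 of 6 tested, including Nrp1 (4.26 ± 0.47 log2, edgeR, adjusted p = 1.33e-07) and Flt1 (3.77 ± 0.76, adjusted p = 0.000599), in squamous cells for 4, in macrophages for 3 and in neutrophils for 1, with 0 lower in any. Nrp1 was also higher in macrophages (3.02 ± 0.47, adjusted p = 1.71e-05) and squamous cells (2.09 ± 0.43, adjusted p = 0.000752). Of 7 genes of the HIF machinery itself, a share at or below that of all genes passed: 1 was higher in stroma, 1 in macrophages, 1 in neutrophils and 0 in squamous cells. Of 8 genes of gluconeogenesis and oxidation, stroma had 1 lower, macrophages 3, neutrophils 1 and squamous cells 1, with 0 higher in any, which outside macrophages is below the share of all genes. The stress list was also higher in all 4 classes than in columnar cells for some genes: 5 of 12 in stroma, 5 in macrophages, 7 in neutrophils and 3 in squamous cells, where 1 was lower.

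Between conditions few genes of these lists passed, apart from the dissociation stress list, of which 7, 10 and 10 of 12 genes were lower in tumor than in normal columnar cells, macrophages and stromal cells. In macrophages Nos2, of the other HIF targets, was at 145 CPM at day 6 alone and at 0 to 1.47 CPM at day 1 (6.95 log2, edgeR). Tumor columnar cells held Nos2 at 3.37 to 201 CPM. It was among the leading genes of columnar cluster 1, almost all of day 6. Columnar markers stood at 21.4% to 50.8% of their columnar level in tumor macrophages. The part of columnar RNA in the macrophage Nos2 value was not tested. In columnar cells Pck1, the first enzyme of gluconeogenesis, was at 344 CPM in normal colon and 1.22 to 10.7 CPM in the tumor libraries (-6.08 ± 1.02, adjusted p = 0.0485). In macrophages Nrp2, a receptor for VEGF, was at 204 CPM in normal colon and 54.9 to 55.8 CPM in the tumor libraries (-2.0 ± 0.43, adjusted p = 0.0286), 1 of 3 receptors tested. In the 3 classes 0 of 20, 0 of 15 and 0 of 9 further glycolysis genes tested passed between tumor and normal colon, with medians of -0.09, 1.14 and 0.60 log2 in columnar cells, macrophages and stromal cells against 0.14, 0.11 and 0.13 over all genes tested.

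The genes most like each of the 9 were found by Pearson correlation of log2(CPM + 10) over 31 sums of classes and libraries, among 8175 genes. These sums share libraries and columnar RNA, and the values are descriptions. Slc2a1 was most like Pglyrp1 (0.87), Dgat2 (0.86) and Rbm47 (0.85), and Egln3 like Krt20 (0.85), Sdcbp2 (0.85) and Sprr2a2 (0.83). Ldha was most like Gsto1 (0.87), Wfdc2 (0.86) and Evpl (0.83), and Pgk1 like Ndufa9 (0.80), Gid8 (0.79) and Tbcb (0.78). Vegfa was like Dpep2 (0.74) and Adap2 (0.73), and Pfkfb3 like Kctd12 (0.78), Dab2 (0.77) and Abca1 (0.76). Adm was most like Fech (0.79), Col5a1 (0.79) and Col5a3 (0.78), Ndrg1 like Rgs16 (0.79), Ptprm and Ndst1 (both 0.71), and Bnip3 like C1d (0.70), Myof (0.64) and Api5 (0.63). Among the 9 genes themselves the highest pairs were Slc2a1 with Egln3 (0.62), Ldha with Egln3 (0.60) and Slc2a1 with Ldha (0.59). The most like genes outside the group had higher values, but these are the best of 8175 genes searched. The comparison therefore cannot show whether the 9 genes go together less than with others.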

How the data were processed

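The authors made the files with dropEst against GRCm38, per the paper and the labels, and deposited raw UMI counts per gene and cell, 1 table per library, without batch correction. Cells of at least 500 genes and at most 15% mitochondrial UMIs were kept. The 9 genes, the related lists and the tests were chosen with earlier results of these data known. Tumor and normal cells were clustered separately (scanpy 1.11.5, leidenalg 0.10.2, resolution 1, 2000 variable genes, 20 components), without the listed genes. Clusters were named from fixed markers, by a rule revised after the clusters were seen. Doublets were kept, since Scrublet called between 0 and 7 cells per library. Counts were summed per class and library where at least 10 cells were present, and tested with edgeR 4.0.16 (quasi-likelihood, TMM, Benjamini-Hochberg over all genes tested, threshold 0.05) in R 4.3.3. Standard errors (±) of edgeR values are the absolute change divided by the square root of the F statistic. All 9 genes are described in every comparison that tested them, singly or by their range, and from each list at most the 6 genes past the threshold with the largest change and at least 20 CPM in 1 group. Some genes that this rule names are not reported here. Alternatives were DESeq2 1.42.0, RLE scaling, library sizes only, no low-count filter, resolution 2, removing the 6% highest Scrublet scores, leaving out each library, library structure, and other sets of clusters. Intervals are 95% exact Poisson intervals, a count of 0 was given a limit of 3 counts, and both cover counting error only. The tests were checked on simulated data. Total UMIs of kept cells per library were 5124405, 16786230, 6659486, 16072809 and 5796058.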

Additional observations from a re-analysis of the deposited data

Results flagged for a closer look

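Adm in day 3 neutrophils stood apart from the other tumor libraries: 29.6 CPM, from 2 UMIs in 27 cells, against 0 to 4.33 CPM in the neutrophils of the other 3 libraries. Its gap to the nearest library, divided by the range, was 0.854, over Dixon's 95% critical value for 4 samples. Of 36 groups looked at, chance flags about 1 in 20. Columnar markers in these neutrophils stood at 80.5% of their columnar level, and columnar cells of day 3 held Adm at 22.0 CPM.

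The tumor-against-normal change differed between macrophages and columnar cells for 4 of the 9 genes, by an interaction term in edgeR. The difference was 2.58 log2 for Vegfa (tumor macrophages 239 to 340.4 CPM and normal macrophages 102 CPM, tumor columnar cells 24.6 to 55.7 CPM and normal columnar cells 60.7 CPM). It was 2.18 log2 for Slc2a1, 1.67 for Ldha and -2.67 for Pfkfb3. All 4 rest on 1 normal library, whose dissociation differed from that of the tumors, and the Slc2a1, Ldha and Pfkfb3 calls were lost without the columnar clusters led by markers of other classes. Columnar markers were also higher in tumor macrophages (21.4% to 50.8% of their columnar level) than in normal ones (4.39%). The part of columnar RNA in these differences was not tested.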

How the results depend on the processing

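Of 1426 values of the 9 genes under the alternatives, 1343 kept their side of the threshold, 33 lost a call, 50 gained one and 0 reversed, while 56 values without a call had the other sign. Only the 13 results called in the main fits could lose a call, over 14 alternatives each between classes and 10 each for interaction terms. Vegfa and Pfkfb3 in macrophages and Ndrg1 in stroma were called under 14 of 14 alternatives. Without the library block, Ldha and Egln3 in squamous cells, Egln3 in macrophages, Pfkfb3 in neutrophils and Adm in stroma lost theirs (adjusted p 0.0946 to 0.233). Small classes limit the depth: 14 to 56 tumor stromal cells and 23 to 389 neutrophils per library. Of 45 shares thinned to 500 in place of 1000 UMIs, 25 stayed within 1 SD. No paired analysis was possible because the labels give the day 3 and day 6 libraries no replicate number. Library structure, which the labels give and which 1 early and 1 late library share, was used as a block instead. Macrophages late against early could not be fitted with a library left out or with library structure, since no residual degrees of freedom remain.

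Of 173 counts of called genes, 99 stayed within 1.5 times. In fits of late against early, leaving out a library leaves a lone library in its group, so those counts describe single libraries. Late against early, columnar cells had 0 genes, but 708 with DESeq2, 1200 without the low-count filter, 851 with library structure as a block, 11 without the columnar clusters led by other classes and 2 to 2169 with a library left out (most without day 3). Squamous cells had 0, against 23 (DESeq2), 97 (no filter), 25 (library structure) and 13 to 102 (a library left out, most without day 3). Neutrophils had 0, against 6 (DESeq2), 12 (no filter) and 0 to 222 (most without day 6). Macrophages had 80, against 24 (DESeq2) and 168 (no filter). Stromal cells had 0, against 10 (DESeq2), 43 (no filter) and 3 to 120 (most without day 3).

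Tumor against normal, columnar cells had 129, against 596 (DESeq2), 241 (no filter), 41 (dual index libraries only), 260 (clusters 4 and 6, with weak columnar markers, left out) and 0 (without day 3) to 422 (without day 6). Macrophages had 279, against 682 (no filter) and 382 to 569 (most without day 6). Stromal cells had 114, against 186 (DESeq2), 469 (no filter), 355 (dual index only) and 102 to 373 (most without day 6).

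Against columnar cells, squamous cells had 1890 called genes, 777 without the library block and 1130 to 1752 with a library left out. Neutrophils had 1735, against 891 and 840 to 1855. Macrophages had 2734, against 1598 and 1559 to 2790. Stromal cells had 2164, against 1175 and 1051 to 2026. The lowest count came without day 1 replicate 2 in each.

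For the interaction terms, squamous against columnar late change had 18, against 93 (DESeq2), 33 (library sizes only), 433 (no filter), 4 (resolution 2), 33 (Scrublet scores removed), 0 (clusters led by other classes left out) and 0 to 964 (most without day 3). Stromal against columnar tumor change had 529, against 215 (DESeq2), 139 (those clusters left out) and 288 to 794 (most without day 6). Macrophage against columnar tumor change had 406, against 217 (DESeq2), 674 (no filter), 250 (resolution 2), 190 (those clusters left out) and 202 (without day 3) to 1519 (without day 6). The causes were not tested.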

Other observations

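Ndrg1 reached its highest levels in cells outside the 5 classes of the report. In normal colon it was at 1037 CPM in 18 glial cells, 1118 CPM in 21 lymphatic endothelial cells, 407 CPM in 48 endothelial cells and 495 CPM in 69 goblet cells. In the tumor libraries that had enough cells it was at 479, 139.8 and 446 CPM in lymphatic endothelial cells, 73.7 to 293 CPM in endothelial cells and 59.6 to 162 CPM in goblet cells. These values come from 1 normal library and were not tested.

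Fbp2, an enzyme of gluconeogenesis, was at 70.6 to 106 CPM in tumor macrophages and had no UMI in normal ones, and was called between them by edgeR (adjusted p = 0.0104). A fitted fold against a level of 0 is no bound, and columnar markers were also higher in the tumor macrophages.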
